A study of Mus musculus with 12 samples.

Results

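Genes of the B cell receptor complex and of follicular B cells, 9 in all, were followed through 12 mammary gland libraries: Ms4a1, Cd79a, Cd79b, Cr2, Fcer2a, Pax5, Spib, Fcmr and Cxcr5. They were taken from a list of B cell genes by symbol, each symbol matched 1 of the 55487 Ensembl gene IDs counted, and all 9 passed the filter on low counts that left 18647 genes. The libraries came from C57BL/6 mice, a common inbred strain, all female by the title of the study and all at postnatal day 84, 4 weeks after a period of folic acid supplementation in juvenile and peri-pubertal life. The supplement was 5 mg/kg folic acid for 6 libraries and 1 mg/kg for the other 6, with no untreated group analysed here. The tissue was the right thoracic mammary fat pad, taken whole, and the sources used here do not say whether lymph nodes were removed. The labels do not state that each library is a separate animal, so the p-values measure the spread between these libraries, which may be technical.

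B cells recognise antigen through a membrane immunoglobulin that cannot signal by itself and relies on a heterodimer of CD79A and CD79B, encoded by Cd79a and Cd79b. CD20, encoded by Ms4a1, is a surface protein of B cells before they become plasma cells. Resting B cells gather in follicles of lymph nodes, where the chemokine receptor CXCR5 brings them towards CXCL13, and where the complement receptor CR2 and the low-affinity IgE receptor FCER2A (CD23) mark the follicular population. PAX5 and SPIB are transcription factors of the lineage and FCMR is a receptor for IgM.

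The promoter windows of 4 of these genes are shown, each holding a match to a short motif. Whether these sequences bear on the levels of the genes was not tested. RefSeq windows on GRCm38.p6, from 250 bases before to 50 after a transcript start, were available for 6 of the 9 genes, and none was used here for Ms4a1, Cd79b and Cxcr5. Each is printed 5′ to 3′ on the strand of its gene, and capitals mark matches to 5 short motifs searched on both strands.
Cd79a promoter, chr7:24897247-24897546, plus strand: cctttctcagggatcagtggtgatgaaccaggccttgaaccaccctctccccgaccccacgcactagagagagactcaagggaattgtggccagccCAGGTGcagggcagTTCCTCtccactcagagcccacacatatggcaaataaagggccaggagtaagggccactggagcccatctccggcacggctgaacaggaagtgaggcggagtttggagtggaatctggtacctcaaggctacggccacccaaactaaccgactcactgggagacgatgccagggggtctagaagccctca
Cr2 promoter, chr1:195176670-195176969, minus strand: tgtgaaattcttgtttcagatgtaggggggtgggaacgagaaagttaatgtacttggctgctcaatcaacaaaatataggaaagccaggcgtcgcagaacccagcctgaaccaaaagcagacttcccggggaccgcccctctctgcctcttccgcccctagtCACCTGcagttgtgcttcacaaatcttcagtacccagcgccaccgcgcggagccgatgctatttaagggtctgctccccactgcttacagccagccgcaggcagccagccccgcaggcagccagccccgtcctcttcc
Fcer2a promoter at the first of its 3 starts listed, chr8:3694125-3694424, minus strand: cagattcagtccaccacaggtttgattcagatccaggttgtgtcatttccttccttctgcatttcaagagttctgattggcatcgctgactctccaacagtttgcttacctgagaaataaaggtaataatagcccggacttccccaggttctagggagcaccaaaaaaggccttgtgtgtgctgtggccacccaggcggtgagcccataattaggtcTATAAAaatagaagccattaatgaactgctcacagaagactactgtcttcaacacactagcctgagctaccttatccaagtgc
Fcmr promoter, chr1:130865527-130865826, plus strand: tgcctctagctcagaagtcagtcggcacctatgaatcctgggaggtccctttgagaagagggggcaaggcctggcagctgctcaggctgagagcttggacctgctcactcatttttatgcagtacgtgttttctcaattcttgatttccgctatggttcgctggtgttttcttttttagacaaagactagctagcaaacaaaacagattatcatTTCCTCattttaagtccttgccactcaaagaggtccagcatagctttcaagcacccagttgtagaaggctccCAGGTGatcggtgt

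The letters GAGGAA, the core bound by Spi-B and its relative PU.1, were found in 2 of the 8 windows that these 6 genes have, those of Cd79a and Fcmr, both on the strand opposite to the gene, and 28.28% of all 32851 windows hold them. The E-box CAGGTG was found in 4 of the 8 windows, 1 each of Cd79a, Cr2, Fcer2a and Fcmr, and in 20.21% of all windows. For Fcer2a, which has 3 windows, it lies in one that is not printed. In Cd79a its first base lies 154 bases before the start and in Cr2 88 bases before it. The letters TATAAA were found in 1 of the 8, the window printed for Fcer2a, and in 13.62% of all windows. Neither the octamer ATGCAAAT (1.74% of all windows) nor CCCNNGGGA, a form of the EBF1 site (6.56%), was found in the windows of these 6 genes. These matches do not overlap each other. The windows of Pax5 and Spib held none of the 5 motifs. A match describes the letters in the window and not a bound site.

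The levels of the 9 genes fell into the same pattern in each case. Ms4a1 (chromosome 19, 11249675 to 11266241, minus strand) had 49.0, 104, 94.9, 0.703, 1.37 and 0.482 CPM in replicates 1 to 6 at 5 mg/kg. In replicates 1 to 6 at 1 mg/kg it had 152, 0.554, 17.7, 0.577, 125 and 140 CPM. CPM here are TMM-scaled counts, set to a common library size, and TMM corrects for differences in RNA composition. In 7 libraries the level was from 17.7 to 152 CPM, namely 3 of those at 5 mg/kg and 4 of those at 1 mg/kg. The remaining 5, replicates 4, 5 and 6 at 5 mg/kg and replicates 2 and 4 at 1 mg/kg, held 1.37 CPM or less. Both folic acid groups spanned nearly the whole range, and they overlapped.

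The signalling subunits of the receptor followed the same libraries. Cd79a (chromosome 7, 24897381 to 24902197, plus strand) had 36.2, 69.0, 61.1, 0.517, 0.687 and 0.280 CPM in the libraries at 5 mg/kg. At 1 mg/kg it had 81.0, 0.269, 10.9, 0.470, 72.0 and 79.7 CPM. The highest value in the 5 low libraries was 0.687 CPM and the lowest in the other 7 was 10.9 CPM. Cd79b (chromosome 11, 106311341 to 106314762, minus strand) had 45.1, 80.0, 79.1, 1.10, 1.15 and 0.808 CPM at 5 mg/kg. At 1 mg/kg it had 108, 0.605, 14.3, 0.804, 93.0 and 92.7 CPM. Its fold between the highest and the lowest library, 179, was the narrowest of the 9 genes, and that of Cxcr5, 1279, the widest.

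Of the follicle receptors, Cr2 (chromosome 1, 195136811 to 195176716, minus strand) had 44.9, 93.1, 89.0, 0.621, 1.33 and 0.637 CPM at 5 mg/kg. At 1 mg/kg it had 132, 0.554, 15.8, 0.531, 121 and 148 CPM. Cxcr5 (chromosome 9, 44511787 to 44561877, minus strand) had 15.1, 32.5, 31.5, 0.248, 0.177 and 0.202 CPM at 5 mg/kg. At 1 mg/kg it had 41.4, 0.0336, 6.11, 0.197, 40.0 and 43.0 CPM. The value of 0.0336 CPM rested on 2 reads and lay under a floor of 3 reads per library, so the fold to it is uncertain. Fcer2a ran from 0.393 to 56.7 CPM (median 16.9) in 5 mg/kg pads and from 0.273 to 75.1 CPM (median 36.3) in 1 mg/kg pads. Fcmr, the IgM receptor, ran from 0.187 to 66.6 CPM in 5 mg/kg pads and from 0.258 to 75.7 CPM in 1 mg/kg pads.

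The transcription factors behaved like the surface receptors. Pax5 ran from 0.641 to 87.9 CPM in 5 mg/kg pads and from 0.437 to 120 CPM in 1 mg/kg pads. Spib ran from 0.249 to 43.5 CPM in 5 mg/kg pads and from 0.218 to 55.0 CPM in 1 mg/kg pads. Exons of Pax5 overlap 2 antisense genes over 7.184% and 1.412% of their length, and those of Cxcr5 overlap Bcl9l over 3.301%, so a part of their reads is uncertain in a library kit that does not mark strand.

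**Figure D1:**
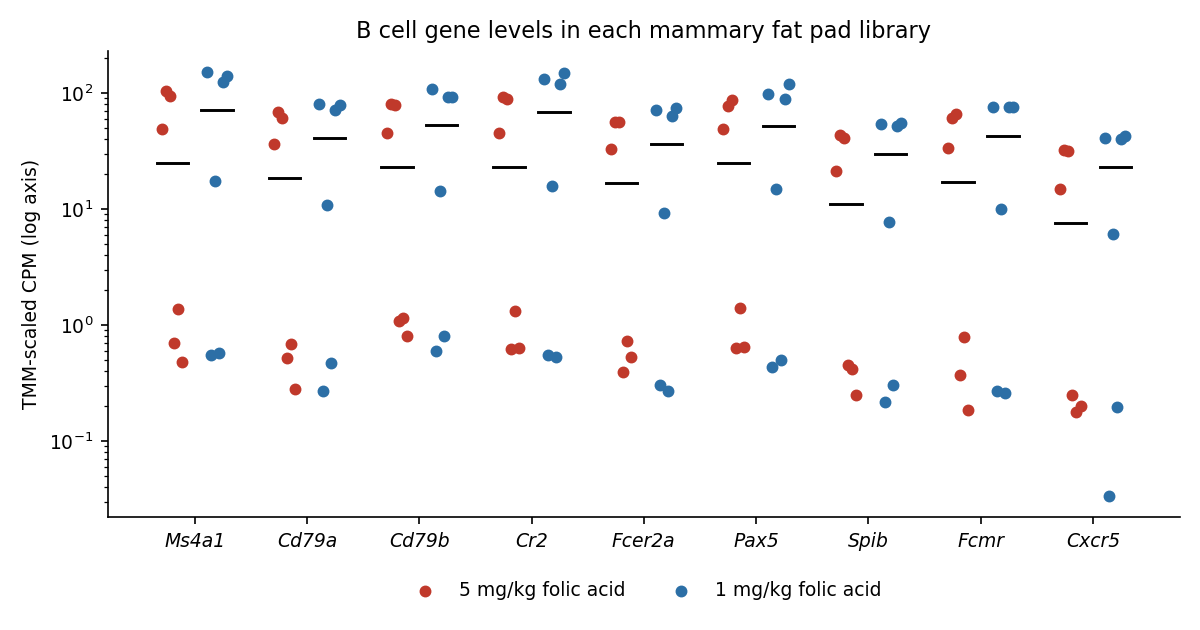
Level of each of the 9 genes in every library, in TMM-scaled CPM on a log axis, with 5 mg/kg libraries (red) left of 1 mg/kg libraries (blue) and a black bar at the median of each group of 6. For each gene 3 libraries at 5 mg/kg and 2 at 1 mg/kg lie far below the other 7, and replicate 3 at 1 mg/kg is the lowest of those 7.

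All 9 genes divided the libraries at the same place. With a prior count of 2 added before the log2, the largest gap between neighbouring libraries was from 3.36 for Pax5 to 4.45 for Cxcr5, and the next largest gap for any of the 9 was 1.83, for Fcer2a. Each time 5 libraries lay below the gap and 7 above it, and the 5 were the same ones. The gap made up from 42.1% (Pax5) to 51.2% (Spib) of a gene's whole range. Replicate 3 at 1 mg/kg lay just above it for every gene and apart from the other 6, with a mean level of the 9 genes of 3.49 log2 CPM. In those 6 the mean level ran from 5.10 to 6.42, and in the 5 low libraries from -1.58 to -0.31. Without replicate 3 at 1 mg/kg the median gap over the 9 genes was 5.35, against 3.60 with all libraries. Of 18647 tested genes 58 had a log2 range at least as wide as the narrowest of the 9, the 9 included. The SD over libraries was 3.25 to 3.77 for the 9 genes against a median of 0.42 for all tested genes. The 9 genes were chosen with earlier results of these data known, so these values describe their spread and test nothing. In whole tissue, fewer B cells and less RNA per B cell cannot be told apart.

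The low libraries were not at 0. The 9 genes together had 17380, 39109, 41100, 244, 365 and 259 reads in replicates 1 to 6 of the 5 mg/kg group, and 62460, 193, 5010, 258, 52375 and 52926 in those of the 1 mg/kg group. The highest share of all gene reads was 0.0731% in 5 mg/kg pads and 0.1099% in 1 mg/kg pads, and the lowest was 0.000391% in 5 mg/kg pads and 0.000326% in 1 mg/kg pads. The 5 low libraries held 52597878 to 75299437 gene reads in all, and the other 7 held 48165752 to 64928270. Over the groups, depth ran from 52597878 to 75299437 gene reads in 5 mg/kg pads and from 48165752 to 71147058 in 1 mg/kg pads. The labels give no batch.

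Levels of different genes were compared per kilobase of exon (RPKM), since the gene models run from 1431 bases for Cd79b to 8853 for Pax5. These lengths merge all annotated exons of a gene. A gene whose transcripts here use only a part of them is therefore set too low, and the order between genes depends on this. Cd79b was the highest in 12 of 12 libraries and Cd79a the second in 12 of 12, so the receptor's signalling subunits led the set in high and low libraries alike. Cd79b ran from 0.565 to 55.9 RPKM at 5 mg/kg and from 0.422 to 75.7 RPKM at 1 mg/kg. Fcmr came next in 11 libraries, and Fcer2a in the remaining one. By the mean log2 RPKM over libraries the order was then Fcer2a, Ms4a1, Spib, Cr2, Pax5 and Cxcr5. The differences between Fcer2a and Ms4a1 (0.19 ± 0.33, mean ± SD on log2 RPKM, n = 12), Ms4a1 and Spib (0.10 ± 0.28) and Pax5 and Cxcr5 (0.32 ± 0.79) were smaller than their spread over libraries. Cxcr5 lay above Pax5 in 6 of 12 libraries.

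The mix of the 9 genes was similar in the 7 libraries with many reads of the set, while in the other 5 the share of Cd79b was larger by its point value and that of Fcmr was smaller in 4. Both genes were picked out after their values were seen. Cd79b made up 13.8, 13.0, 13.0, 21.7, 14.2 and 20.1% of the reads of the 9 genes in replicates 1 to 6 at 5 mg/kg. At 1 mg/kg its share was 13.3, 18.7, 13.4, 20.5, 12.7 and 11.2%. In replicate 4 at 5 mg/kg 53 of 244 reads were from Cd79b, an exact 95% binomial interval of 16.7 to 27.4%, and in replicate 4 at 1 mg/kg it was 53 of 258 reads, 15.8 to 26.0%. Replicate 6 at 5 mg/kg had an interval of 15.4 to 25.5%. These 3 intervals lie above the point values of all 7 libraries with 5010 or more reads of the set, which ran from 11.2 to 13.8%. For replicate 5 at 5 mg/kg (10.8 to 18.3%) and replicate 2 at 1 mg/kg (13.4 to 24.9%) a difference was not detectable at this depth. Fcmr made up 9.09 to 10.97% of the reads in those 7 libraries. In the other 5 it made up 7.38, 9.86 and 4.63% in replicates 4, 5 and 6 at 5 mg/kg and 8.29 and 6.59% in replicates 2 and 4 at 1 mg/kg. Among these only the interval of replicate 6 at 5 mg/kg, 2.42 to 7.95%, lay below the values of the 7. Such intervals cover counting error only.

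**Figure D2:**
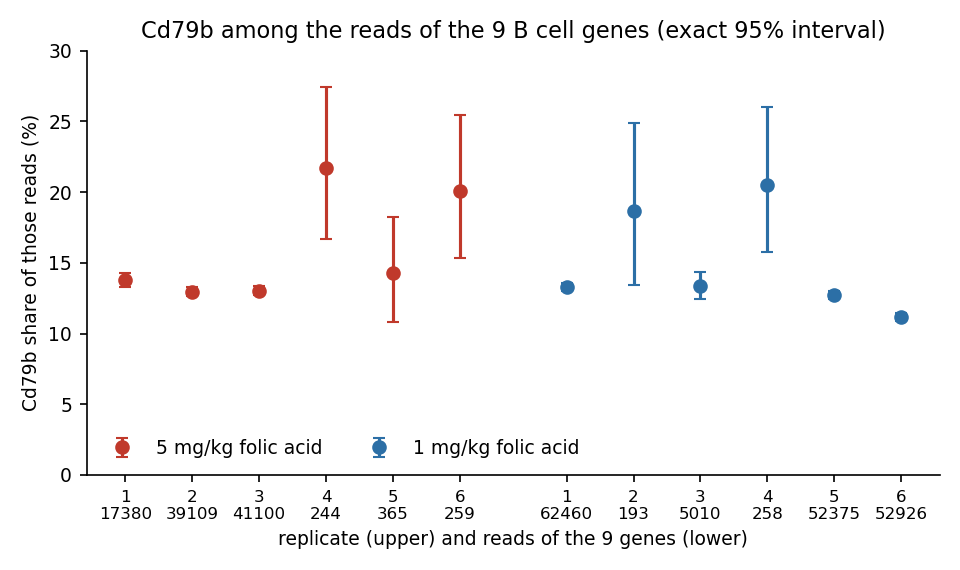
Share of Cd79b among the reads of the 9 genes (percent) in each library, with exact 95% binomial intervals, at 5 mg/kg (red) and 1 mg/kg (blue), and the summed reads of the 9 genes under each replicate number. The 5 libraries with 365 or fewer reads of the set have wide intervals, and 4 of them have shares of 18.7 to 21.7%.

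The ratio of the subunits was also larger in those 5 libraries. Cd79b stood at 1.27, 1.18, 1.32, 2.16, 1.71 and 2.94 times Cd79a by RPKM in replicates 1 to 6 at 5 mg/kg. In 1 mg/kg pads it stood at 1.36, 2.29, 1.33, 1.74, 1.32 and 1.18 times Cd79a. The means were 1.76 ± 0.682 in 5 mg/kg pads and 1.54 ± 0.414 in 1 mg/kg pads (SD, n = 6 each), and the groups overlapped. Cr2 over Ms4a1 was steady, at 0.753 ± 0.128 in 5 mg/kg pads and 0.725 ± 0.0538 in 1 mg/kg pads. The ratio of the follicular receptors, Fcer2a over Cr2, was 1.93, 1.60, 1.65, 1.66, 1.44 and 2.18 at 5 mg/kg, against 1.42, 1.43, 1.54, 1.35, 1.38 and 1.33 at 1 mg/kg. Only the lowest library at 5 mg/kg and the highest at 1 mg/kg overlapped, and this ratio was picked out after its values were seen, so no test is given. Pax5 over Spib was 0.735 ± 0.221 in 5 mg/kg pads and 0.609 ± 0.0639 in 1 mg/kg pads.

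None of the 9 genes passed the test between 5 mg/kg and 1 mg/kg folic acid. By edgeR's quasi-likelihood test with Benjamini-Hochberg adjustment, 0 of the 9 passed an adjusted p of 0.05, and 0% of all 18647 tested genes did, with 359 genes at an unadjusted p under 0.05. DESeq2, run without the filter on low counts over 48208 genes, called 0 genes too, with 776 at an unadjusted p under 0.05. By limma-voom, over the same 18647 genes as edgeR, 0 were called and 361 had an unadjusted p under 0.05. All 9 log2 fold changes were negative, from -0.86 for Cr2 to -0.54 for Cd79a, as were 9854 of all 18647. The median was -0.58 against -0.018 over all tested genes. The 9 genes divided the libraries alike, so their shared sign is not 9 separate observations. Genes of the lists below that vary together are likewise not independent in the counts of signs. Ms4a1 was at 41.8 ± 48.6 CPM in 5 mg/kg pads and 72.6 ± 73.5 CPM in 1 mg/kg pads (SD, n = 6 each). The log2 fold change by edgeR was -0.80 ± 1.45 (SE), with an adjusted p of 0.943. Its 95% interval ran from -3.95 to 2.36, so a change of several fold in either direction lies within it. Cd79b had the smallest standard error of the 9, 1.35, and its log2 fold change was -0.58 (95% interval -3.51 to 2.35).

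A narrower comparison came from setting the B cell genes beside T cells. The T cell list, of receptor and signalling genes such as Cd3e, the epsilon chain of CD3, varied over the same libraries as the 9 genes, with a level of 4.15, 4.39, 4.28, -0.74, -1.13 and 0.073 log2 CPM in replicates 1 to 6 of the 5 mg/kg group and 4.65, -0.99, 2.60, -0.98, 4.81 and 5.04 in those of the 1 mg/kg group. It contains none of the 9, although Cd5 and Cd27 of the list are also made by some B cells. Without a covariate all 20 T cell genes had negative log2 fold changes (median -0.61), and none passed. With this level as a covariate in edgeR, the standard errors of the 9 genes were 0.24 to 0.37, against 1.35 to 1.47 without it. The log2 fold changes then lay between -0.008 for Cxcr5 and 0.27 for Pax5. Positive values were found for 8 of the 9 and for 9259 of all 18647 genes. The median was 0.11 against -0.001 over all genes. Ms4a1 was at 0.025 ± 0.35 (SE), with a 95% interval from -0.73 to 0.78 and an edgeR adjusted p of 0.997. Fcer2a, with the smallest p of the 9, was at 0.22 ± 0.24 (adjusted p = 0.932 by edgeR), with an interval from -0.31 to 0.75.

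Again 0 of the 9 and 0% of all genes passed, with 822 genes at an unadjusted p under 0.05. The intervals of all 9 genes stayed between -0.73 and 1.01, so at a given T cell level a 2-fold lower level at 5 mg/kg lay outside each of them. The covariate is itself measured after the treatment, so a folic acid effect shared by B and T cells would be removed with it. The sign of these small values depended on the tool and the covariate for some genes: by limma-voom Ms4a1 and Cr2 were both at -0.16 with the same covariate.

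**Figure D3:**
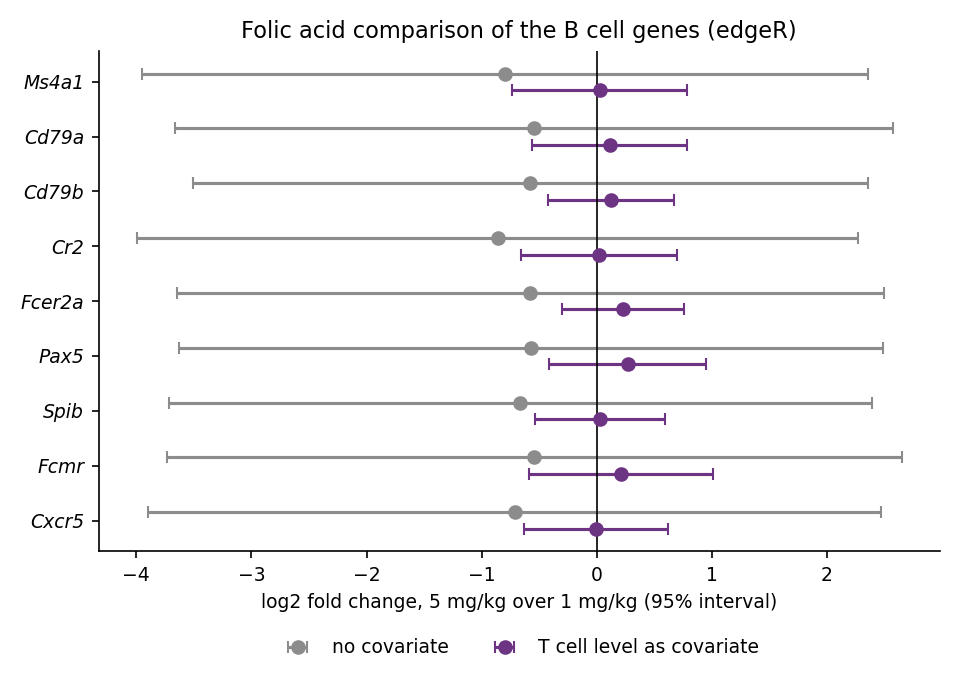
log2 fold change of each gene at 5 mg/kg over 1 mg/kg by edgeR, with 95% intervals, without a covariate (grey) and with the T cell level as covariate (purple). All intervals include 0, and those with the covariate are several times narrower.

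**Figure D4:**
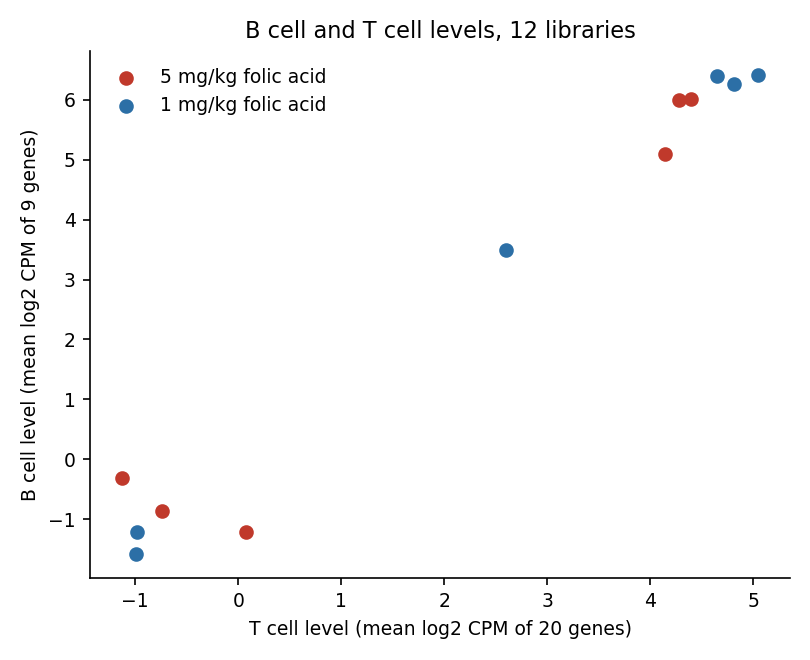
Mean log2 CPM of the 9 B cell genes against the mean log2 CPM of the 20 T cell genes in each library, at 5 mg/kg (red) and 1 mg/kg (blue). At the lower left lie 5 libraries, 6 at the upper right, and replicate 3 at 1 mg/kg (2.60, 3.49) between them.

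Immunoglobulin genes and surface receptors of B cells were among the genes whose pattern was most like that of the 9. Likeness was measured over the 12 libraries as the SD of the difference between a gene's log2 CPM and the mean of the 9, among 14061 other genes with a mean of at least 1 CPM, whose median SD was 3.59. Among the first 10 were Iglc3, a lambda light chain constant gene with near-identical copies (0.23), Ighd, the constant gene of IgD (0.24), Fcrl1, an Fc receptor-like protein of B cells (0.32), and Cd22, an inhibitory receptor (0.36). Cd22 had 53.1, 85.2, 94.4, 0.538, 1.24 and 0.979 CPM in replicates 1 to 6 of the 5 mg/kg group, and 113, 0.806, 19.8, 0.683, 105 and 116 CPM in those of the 1 mg/kg group. Further genes among the first 10 were Il22ra2, a soluble receptor of interleukin 22 (0.40), Pou2af1, the coactivator OBF-1 of B cells (0.42), H2-Eb2, a class II gene (0.46), Serpina10 (0.46) and the lambda variable segment Iglv3 (0.48). Serpina10 had 0, 2 and 1 reads in replicates 4, 5 and 6 at 5 mg/kg and 0 and 1 in replicates 2 and 4 at 1 mg/kg. Iglv3 fell to 0.0168 CPM at 1 mg/kg. The SDs of these 2 genes therefore depend on the prior count of 2. In all 14 genes outside the 9 lay under an SD of 0.5. Among the 9 themselves the SD was 0.17 for Cd79a to 0.47 for Cxcr5. All these values come from the same 12 libraries, and why the genes vary together was not tested.

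The level of the list of receptor signalling genes spanned 3.34 on log2 CPM over the libraries, and 3 of its genes, Cd22 among them, followed the 9 genes with an SD under 0.5. Of 22 listed genes all were tested, none passed (smallest edgeR adjusted p = 0.943), 21 had negative log2 fold changes and 1 a positive one, and the median was -0.51. Over all tested genes 9854 of 18647 were negative. With the T cell level as covariate 6 of the 22 were positive and the median was -0.066, and over all genes 9388 were then negative. The adaptor Blnk ran from 3.25 to 25.6 CPM in 5 mg/kg pads and from 2.85 to 34.9 CPM in 1 mg/kg pads (log2 fold change -0.61 ± 0.72). The kinase Syk ran from 16.2 to 93.4 CPM in 5 mg/kg pads and from 17.2 to 129 CPM in 1 mg/kg pads (-0.51 ± 0.58), and the kinase Lyn from 16.9 to 60.4 CPM in 5 mg/kg pads and from 23.1 to 74.5 CPM in 1 mg/kg pads (-0.36 ± 0.41). Btk, the kinase lost in human X-linked agammaglobulinaemia, was at -0.65 ± 0.68. The 3 with the smallest p were Grb2, a general adaptor (-0.25 ± 0.17), Dapp1 (-0.50 ± 0.34) and the tetraspanin Cd81 (0.21 ± 0.15), which was also the most abundant gene of the list, at 85.2 to 117 CPM in 5 mg/kg pads and 62.4 to 120 CPM in 1 mg/kg pads. Over the 12 libraries Syk spanned 2.99 and Cd81 0.94 on log2 CPM, against 8.21 for Ms4a1.

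Of 16 transcription factors of B cells, 15 had negative values and 1 a positive one (median -0.56), with none past the threshold, and with the T cell covariate 3 were positive (median -0.096). Pou2af1 ran from 0.166 to 30.4 CPM in 5 mg/kg pads and from 0.182 to 41.9 CPM in 1 mg/kg pads. Ebf1, a factor that specifies B cells and is also used by fat and stromal cells, did not follow the 9 genes: it ran from 75.6 to 115 CPM in 5 mg/kg pads and from 71.5 to 104 CPM in 1 mg/kg pads, with a log2 fold change of 0.063 ± 0.14 and of -0.072 under scaling to library size without TMM. Irf4, a factor of activated B cells and plasma cells, had the smallest p of the list (-0.93 ± 0.44, edgeR adjusted p = 0.943). Its highest values were in replicates 3 and 2 at 1 mg/kg, 168 and 119 CPM. Replicate 2 at 1 mg/kg is among the 5 libraries low in the 9 genes. Irf4 did not follow the 9 genes (SD of the difference from their mean 3.36), and which cells its reads came from was not tested. The NF-kB subunit Rel was at -0.73 ± 0.66.

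Genes of follicle formation, survival and entry, 17 in all, did not pass the threshold, and 16 had negative values (median -0.56). With the T cell covariate 8 of the 17 were positive and the median was -0.004. Cxcl13, the follicle chemokine that CXCR5 reads, had 13.5, 41.1, 65.9, 1.63, 3.34 and 1.87 CPM in 5 mg/kg pads and 49.6, 0.873, 9.45, 0.971, 59.6 and 58.1 CPM in 1 mg/kg pads, so it was low in the same 5 libraries as its receptor. Tnfsf13b, the B cell survival factor BAFF, had the smallest p of the list (-0.58 ± 0.36). None of the 6 follicular dendritic cell genes passed and all had negative values (median -0.48), Vcam1, an adhesion molecule, being at -0.55 ± 0.50. With the covariate 1 of these 6 was positive (median -0.23). Of the 7 tested genes of the lymph node stroma and venule list none passed and 5 had negative values (median -0.59), against a median of -0.035 with the covariate, where 3 were positive. Glycam1, a ligand of L-selectin on node venules, ran from 0.824 to 423 CPM in 5 mg/kg pads and from 0.806 to 519 CPM in 1 mg/kg pads. Its low values, 6.99 CPM or less, fell in the same 5 libraries. Ccl21a, which has near-identical copies, was counted at 0 reads in each library.

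Membrane immunoglobulin genes followed the 9 genes unevenly. Ighd had 112, 179, 211, 1.86, 2.97 and 2.04 CPM in 5 mg/kg pads and 230, 1.13, 32.1, 1.70, 235 and 255 CPM in 1 mg/kg pads (log2 fold change -0.57 ± 1.39). Ighm, the constant gene of IgM, which plasma cells also secrete, kept 23.7, 24.6 and 34.7 CPM in replicates 4, 5 and 6 at 5 mg/kg and 21.4 and 17.1 CPM in replicates 2 and 4 at 1 mg/kg, where Ighd did not exceed 2.97 CPM. All 6 immunoglobulin constant genes had negative values (median -0.68), and none passed. With the T cell covariate the direction turned, with 4 of the 6 positive and a median of 0.10. Of 7 tested plasma cell genes 4 had positive values with and without the covariate, and none passed (median 0.012 without it). Jchain, the joining chain of secreted IgM and IgA, was at -0.83 ± 1.03 and Sdc1, which epithelium also makes, at 0.46 ± 0.25.

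Germinal centres are sites where B cells divide and mutate their receptors. A list of genes of germinal centres and of dividing cells of any kind included the scarce Rgs13, a signalling regulator of germinal centre B cells. Replicate 5 at 1 mg/kg was the highest in Rgs13, at 1.59 CPM against 0.657 CPM or less in the other 11 libraries. It was also the highest in Jchain, of the plasma cell list, at 38.5 CPM. Other genes of these lists did not peak there. Mki67, a gene of dividing cells, was at 53.3 CPM in it and at 69.8 CPM in replicate 1 at 1 mg/kg. Sdc1, of the plasma cell list, had its lowest value of all libraries there, 8.70 CPM. Which cells these reads came from was not tested. The level of the 9 genes in replicate 5 at 1 mg/kg, 6.26 log2 CPM, lay below those of replicates 1 and 6 of its group, 6.39 and 6.42. Bcl6, the germinal centre repressor that many other cells also use, ran from 20.2 to 35.4 CPM in 5 mg/kg pads and from 19.3 to 31.8 CPM in 1 mg/kg pads. Of the 11 tested genes of this list none passed and 9 had negative values (median -0.18), whereas with the T cell covariate 7 had positive values (median 0.073).

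Of the 14 gene lists none had a level that varied as widely over the libraries as that of the 9 genes. Both the 9 genes and the lists were chosen with earlier results of these data known. The level of the 9 genes ran from -1.22 to 6.02 on log2 CPM in 5 mg/kg pads and from -1.58 to 6.42 in 1 mg/kg pads, and that of the T cell list spanned 6.17 in all, whereas the macrophage list spanned 1.03, from 4.97 to 5.66 at 5 mg/kg and from 4.70 to 5.73 at 1 mg/kg. The 7 mammary epithelium genes, which mark the labelled tissue, were present in each library at a level of 3.21 to 5.18 in 5 mg/kg pads and 2.41 to 5.49 in 1 mg/kg pads, with Epcam at 20.3 to 66.9 CPM in 5 mg/kg pads and 13.4 to 88.4 CPM in 1 mg/kg pads. The adipocyte level was 7.69 to 8.41 in 5 mg/kg pads and 6.73 to 8.56 in 1 mg/kg pads, and it moved with the split of the B cell genes. It was 8.41, 8.38 and 8.14 in replicates 4, 5 and 6 at 5 mg/kg and 7.76 and 8.56 in replicates 2 and 4 at 1 mg/kg, all above the other 7 libraries, which ran from 6.73 to 7.70. All 8 adipocyte genes had positive log2 fold changes (median 0.43, and 0.42 with the covariate), Cebpa being at 0.58 ± 0.27, and none passed. Of the 10 macrophage genes 8 were positive (median 0.18), and 10 with the covariate (median 0.16), Adgre1 being at 0.28 ± 0.19, and none passed. Plasmacytoid dendritic cell genes, listed because such cells also use Spib, had negative values in 6 of 7 cases with and without the covariate (median -0.32 without it). Muscle genes had negative values in 6 of 7 cases (median -0.16), and in 7 of 7 with the covariate. None of these passed. The epithelium genes were positive in 3 of 7 cases (median -0.046), and in 5 of 7 with the covariate (median 0.042). Reads outside genes made up 5.58 to 20.8% of all reads in 5 mg/kg pads and 8.34 to 26.6% in 1 mg/kg pads, and mitochondrial rRNA made up 41.9 to 59.5% of gene reads in 5 mg/kg pads and 39.2 to 52.9% in 1 mg/kg pads. The part of these differences in the values of the 9 genes was not tested.

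**Figure D5:**
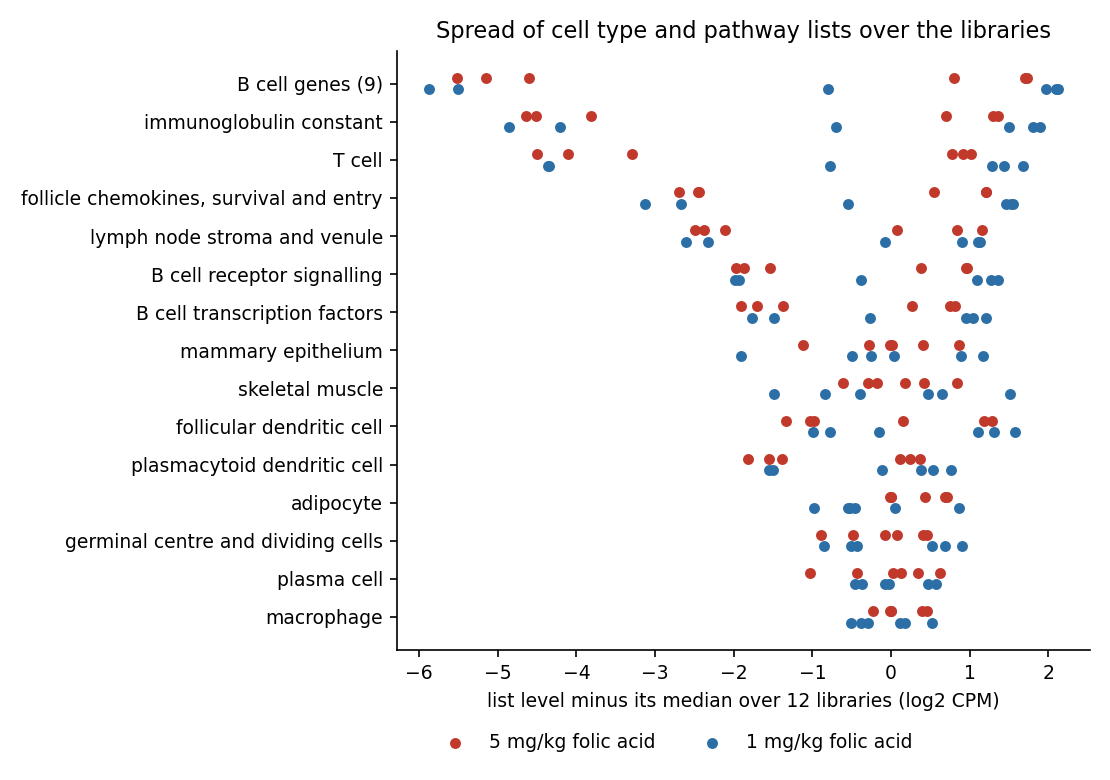
Level of each gene list in every library, as mean log2 CPM minus its median over the 12 libraries, at 5 mg/kg (red, upper row) and 1 mg/kg (blue, lower row), with lists ordered by their range. The 9 B cell genes, the immunoglobulin constant genes and the T cell genes spread over more than 6 log2 units, and the macrophage genes over 1.03.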

How the data were processed

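RNA of mammary fat pads was measured in 12 libraries, 6 at 5 mg/kg and 6 at 1 mg/kg folic acid. Per the labels' protocols, a mirVANA kit gave the RNA and Illumina's TruSeq v2 kit, which keeps no strand information, the libraries. The deposited values are raw counts per gene, which the authors made with STAR on mm10 and HTSeq 0.6.1 per the submitters' processing notes. The sources used here give no STAR version, annotation or strand setting. The 5 tally lines held 16.7 to 35.7% of all reads and were left out of depth and of every test, and 8.30 to 10.5% of all reads aligned to more than 1 place. Symbols matched 55141 of 55487 IDs, and positions and exon lengths came from GENCODE vM21 on GRCm38, the same assembly as mm10.

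The test was edgeR 4.0.16 in R 4.3.3, with filterByExpr, TMM and robust quasi-likelihood F-tests over all 12 libraries, adjusted over 18647 genes. It was also run with the T cell level as covariate, the mean log2 CPM (prior count 2) of 20 genes. Standard errors are the fold change over the root of F. Alternatives used DESeq2 1.42.0, limma 3.58.1, other scalings, filters and covariates, and leaving out each library. The fit was tested on simulated data, in which only genes that vary little between libraries were changed. It does not show how large a change in the 9 genes could be found. Of 30 within-group pairs of libraries none was a copy within sampling noise (lowest chi-square per degree of freedom 41.7). Replicates are numbered by record order. The 9 genes and the 14 gene lists beside them were chosen with earlier results of these data known. Named were the 9 genes, the 3 list genes with the smallest p and the most abundant one, 20 further genes chosen by name, and the 10 genes most like the 9. The text gives some of these, picked after their values were seen, and a few are not reported here.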

Additional observations from a re-analysis of the deposited data

Results flagged for a closer look

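Among 126 groups of 6 libraries 4 held a value far from the others of the group, by a gap to the nearest library of more than 0.625 of the group's range. Chance gives such a value in about 1 of 20 groups. Rgs13 was at 1.59 CPM in replicate 5 at 1 mg/kg. Cxcr5 made up 2.19% of the reads of the 9 B cell genes in replicate 5 at 5 mg/kg, from 8 reads, and 1.04% in replicate 2 at 1 mg/kg, from 2 reads. Fcer2a made up 6.98% in replicate 4 at 1 mg/kg, from 18 reads. The 3 shares rest on few reads, and the exact 95% intervals of both Cxcr5 shares, 0.951 to 4.27% in replicate 5 at 5 mg/kg and 0.126 to 3.69% in replicate 2 at 1 mg/kg, lie below the share of every library with 5010 or more reads of the set.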

How the results depend on the processing

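The counts of genes and of the 9 B cell genes past the threshold were 0 under every alternative run, and without a covariate no log2 fold change of the 9 genes changed sign when a library was left out or under another scaling, filter or tool. Among the recomputed values 775 kept their direction and call, 53 changed sign and 2 moved by more than the spread. With libraries scaled by size alone, the median log2 fold change of all genes was -0.161 and that of Ebf1 -0.072. By edgeR with TMM, all 12 libraries and either covariate, the log2 fold changes of the 9 genes were positive, except that of Cxcr5 with the T cell level, -0.008. With the T cell level, Ms4a1 was at 0.025, Cd79a at 0.111, Cd79b at 0.124, Cr2 at 0.017, Fcer2a at 0.224, Pax5 at 0.269, Spib at 0.029, Fcmr at 0.213 and Ighd at 0.239. With the lymph node stroma level, Ms4a1 was at 0.175, Cd79a at 0.322, Cd79b at 0.303, Cr2 at 0.156, Fcer2a at 0.448, Pax5 at 0.455, Spib at 0.218, Fcmr at 0.427, Cxcr5 at 0.235 and Ighd at 0.416. By limma-voom with the T cell level, Ms4a1 and Cr2 were at -0.155, Spib at -0.003 and Cxcr5 at 0.026. The cause was not tested. Leaving out 1 library at a time with the T cell level gave -0.258 to 0.195 for Ms4a1, -0.041 to 0.287 for Cd79a, -0.005 to 0.266 for Cd79b, -0.255 to 0.166 for Cr2, -0.002 to 0.413 for Pax5, -0.070 to 0.176 for Spib, -0.024 to 0.391 for Fcmr and -0.137 to 0.15 for Cxcr5, and without a covariate -0.016 to 0.131 for Ebf1. For Cd79a, Cd79b, Pax5 and Fcmr only the omission of replicate 5 at 5 mg/kg changed the sign. The median largest gap between libraries ran from 3.604 to 5.347, the higher value without replicate 3 at 1 mg/kg. Of the 10 genes most like the 9, from 7 to 10 were shared under the alternatives. No paired analysis was possible because the replicate numbers follow record order and the labels give no pairing. Depth limits the ratios in the 5 libraries with 365 or fewer reads of the 9 genes.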
